A study of Arabidopsis thaliana with 96 samples.

Results

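Small RNAs over the enhancer and the promoter of AGAMOUS (AG, AT4G18960) were measured in young flowers of Arabidopsis thaliana mutant for met1-1, with or without a transgene cassette named for the AG enhancer. The libraries were chosen by their titles, as those of set B whose genotype is met1-1, and made up 12 of the 96 libraries of the series. They form 4 groups of 3, and all 4 groups carry the met1-1 allele. For a comparison of hosts, 12 further libraries of set B were used, from ddm1-1 flowers in 4 groups of 3 with the same cassettes and flower classes. The group met1-1_Wt is the host, whose genotype names no cassette and whose flowers are labelled Wt. The groups met1-1_ARE//AGe_sMf and met1-1_ARE//AGe_rMf carry the ARE//AGe cassette in flowers of the classes sMf and rMf, and met1-1_Ctr//AGe_rMf carries the Ctr//AGe cassette in flowers of class rMf. The labels do not spell out ARE, Ctr, sMf or rMf, and the series title speaks of an anti-RdDM element that defends a regulatory element against silencing. They give every library the same treatment entry, a change of floral structure, and no plant age at sampling.

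Each replicate was RNA from flowers pooled over several lines of 1 phenotype, so a library is not 1 plant or 1 insertion, and the labels do not say whether the pools of 1 group shared lines. P-values of the permutation tests rest on the spread between these pools. Except where fewer libraries are named, the edgeR fit took 1 spread for both regions over all 32 libraries of set B, other hosts included. Its p-values therefore do not measure the spread of the compared groups alone. No library of set B combines Ctr//AGe with sMf flowers in met1-1, and the host flowers belong to neither class. In the comparisons with the host, cassette and flower class therefore differ together, as they do between ARE//AGe in sMf flowers and Ctr//AGe. In pooled flowers, fewer cells that make a small RNA and less of it per cell cannot be told apart. The table holds 2 regions and no marker genes, so the tissue label could not be checked.

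AG encodes a MADS-domain transcription factor that specifies stamens and carpels, and its large second intron holds the enhancer that directs its expression in the flower centre. In RNA-directed DNA methylation (RdDM), small interfering RNAs direct new methylation onto DNA of the same sequence, in all cytosine contexts, CG, CHG and CHH, where H is A, C or T. MET1 is the methyltransferase that copies CG methylation to the new strand after replication, and met1-1 is a partial loss-of-function allele of its gene. CHG and CHH methylation in plants are maintained by other enzymes, and CHH sites in part by RdDM itself.

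The 2 regions counted by the authors lie on chromosome 4 on either side of the start of AG (TAIR10 coordinates). The enhancer region, AGe, spans chr4:10384147-10387145, which is 2999 bases. In 3 of the 4 RefSeq transcripts of AG, 2835 of these bases lie in intron 2, 90 in exon 3 and 74 in intron 3, and in the other transcript the whole region lies in intron 2. The promoter region, AGp, spans chr4:10380701-10382800, which is 2100 bases, ends 55 bases before the annotated start of AG and overlaps no annotated gene. The file header names this column "AGp or M2", and M2 is not explained there.

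Both regions are poor in the CG sites that MET1 acts on. AGe holds 30 CG dinucleotides, or 10.003 per kb, against a median of 22.3 per kb over 39726 genome windows of its length, and 0.808% of those windows hold fewer. AGp holds 14, or 6.67 per kb, against a median of 21.9 per kb, and 0.418% of 56735 windows hold fewer. Over both strands, CG sites are 7.01% of the cytosines of AGe and 4.67% of those of AGp. CHH sites are 84.5% and 86.6%. Printed here is the stretch of 300 bases with the most CG sites in each region, since these are the sites at which the host mutation acts. Capitals mark CG, and both stretches are the plus strand of RefSeq TAIR10.1, the strand of AG. The AGe stretch is chr4:10385426-10385725, with 8 of the CG sites of its region, and the AGp stretch is chr4:10380701-10381000, with 6.
AGe: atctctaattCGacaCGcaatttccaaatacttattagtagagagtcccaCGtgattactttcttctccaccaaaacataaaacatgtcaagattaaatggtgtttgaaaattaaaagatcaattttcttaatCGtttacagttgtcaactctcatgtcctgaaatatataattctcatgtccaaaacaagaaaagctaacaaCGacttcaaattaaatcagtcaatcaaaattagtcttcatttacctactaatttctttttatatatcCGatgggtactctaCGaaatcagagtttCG
AGp: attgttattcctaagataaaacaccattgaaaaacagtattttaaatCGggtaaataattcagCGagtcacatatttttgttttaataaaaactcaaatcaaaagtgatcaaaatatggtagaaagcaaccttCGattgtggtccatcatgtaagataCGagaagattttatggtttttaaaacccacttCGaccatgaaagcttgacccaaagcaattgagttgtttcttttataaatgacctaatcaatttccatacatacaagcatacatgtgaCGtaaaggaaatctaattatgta

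The 2 regions do not share sequence at the length of a small RNA. All 2976 words of 24 bases in AGe and all 2077 in AGp occur once in the reference genome, and no word of 15 bases occurs in both regions. A small RNA that matches AGe exactly therefore does not also count for AGp. The copy of AGe in a cassette and the one in the AG gene have the same name in the table, and reads from them cannot be told apart. Since the labels do not spell out ARE or Ctr, it is also not known here whether AGp reads come only from the AG locus.

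The 12 libraries held between 5848557 mapped reads, in replicate 2 of ARE//AGe sMf, and 18172340, in replicate 3 of ARE//AGe rMf. Between 1107747 and 3582305 of these aligned once, and the rest aligned more than once. Region counts were set against each of these totals, as reads per 1000000 mapped reads (RPM) and as reads per 1000000 reads aligned once (RPMo), because the alignment classes differed between the groups. Of mapped reads, 91.4% ± 0.766 (SD, n = 3) aligned more than once in the host, 86.5% ± 0.832 in ARE//AGe rMf, 80.8% ± 0.443 in ARE//AGe sMf and 74.0% ± 0.791 in Ctr//AGe. The individual libraries ran from 90.6% to 92.2% in the host, from 85.8% to 87.4% in ARE//AGe rMf, from 80.4% to 81.2% in ARE//AGe sMf and from 73.4% to 74.9% in Ctr//AGe. The 4 groups did not overlap. An exact permutation test of the F ratio over the 4 groups gave p = 6.49e-05, the smallest that 369600 arrangements allow.

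The 6 ARE//AGe libraries stood 9.68 points above the 3 Ctr//AGe libraries in this share and differed by -7.71 points from the 3 host libraries, each with an exact two-sided permutation p of 0.0238. That is the smallest p for 6 against 3 libraries, and between 2 groups of 3 it is 0.1. The 6 pool both flower classes, which did not overlap, while Ctr//AGe has rMf flowers only. The share aligned once stood in the opposite order. It was 2.22 times the host's in ARE//AGe sMf, 1.57 times in ARE//AGe rMf and 3.02 times in Ctr//AGe, and ratios of the region counts shrink by these factors when they are taken per read aligned once. Reads that did not align were 2.04% ± 0.0619 of total reads in the host, 3.22% ± 0.141 in ARE//AGe rMf, 4.66% ± 0.0961 in ARE//AGe sMf and 4.94% ± 0.368 in Ctr//AGe. Only the last 2 of these groups overlapped.

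**Figure D1:**
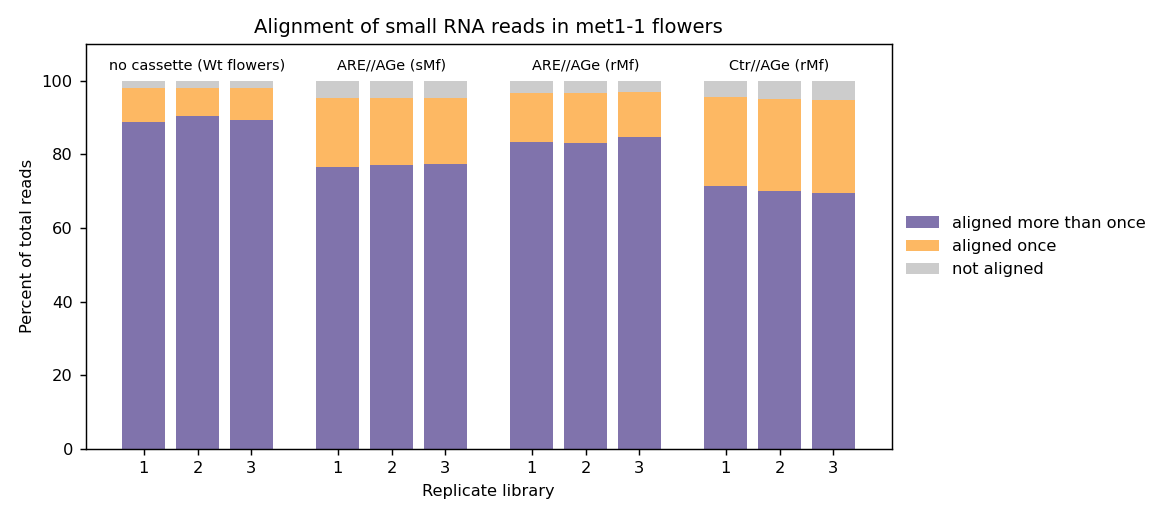
Percent of total reads (y axis, from 0) that aligned more than once, aligned once or did not align, stacked for each of the 3 replicate libraries of the 4 met1-1 groups (x axis). The part aligned once is smallest in the host, at 7.68% to 9.17% of total reads, and largest with Ctr//AGe, at 23.96% to 25.2%.

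In the met1-1 host, small RNAs over AG were scarce. The 3 libraries held 108, 94 and 157 AGe reads, or 6.89, 6.64 and 9.14 RPM, and 69, 46 and 63 AGp reads, or 4.40, 3.25 and 3.67 RPM. Both regions were above the level that 3 reads would give, at most 0.212 RPM in these libraries. Counting error alone (exact Poisson, 95%) put the AGe level of replicate 1 between 5.65 and 8.32 RPM. Against reads aligned once, the host held 88.1 ± 16.3 RPMo of AGe and 43.7 ± 2.96 RPMo of AGp (SD, n = 3).

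Each of the 2 regions was tested in the 6 pairs of groups, 12 tests in all. Per mapped read 11 of the 12 (91.7%) passed, and per read aligned once 10 of the 12 (83.3%), by edgeR with Benjamini-Hochberg adjustment over the 12. These shares describe the same 12 tests, since no other region was counted.

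With the ARE//AGe cassette, small RNAs over both regions rose by more than 100-fold per mapped read, in both flower classes. AGe reads in sMf flowers numbered 41562, 16524 and 28611, or 2856, 2825 and 2811 RPM. AGe reads in rMf flowers numbered 20402, 10947 and 18943, or 1301, 1142 and 1042 RPM. Every library of either class stood above every host library. The ratio of mean RPM to the host was 375 in sMf flowers, a log2 change of 8.55 ± 0.47 (SE, edgeR adjusted p = 7.96e-21), and 154 in rMf flowers, a log2 change of 7.26 ± 0.44 (edgeR adjusted p = 2.26e-19). The 95% intervals of the fitted ratios were 194 to 719 and 82.5 to 285.

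AGp reads rose as well with ARE//AGe. They numbered 27474, 10301 and 18853 in sMf flowers, or 1888, 1761 and 1852 RPM, and 15023, 8143 and 14028 in rMf flowers, or 958.3, 849.6 and 771.9 RPM. Again no library overlapped the host. The ratio of mean RPM to the host was 486 in sMf flowers, a log2 change of 8.92 ± 0.53 (edgeR adjusted p = 1.30e-19), and 228 in rMf flowers, a log2 change of 7.83 ± 0.51 (edgeR adjusted p = 1.84e-18). In RPMo these 4 ratios were lower and still passed the test, at 168 and 219 for AGe and AGp in sMf flowers and 97.8 and 146 in rMf flowers, with edgeR adjusted p between 2.91e-18 and 3.97e-17.

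With the Ctr//AGe cassette the rise over the host was of a similar order at the enhancer and far smaller at the promoter. AGe reads numbered 37960, 55972 and 50129, or 3958, 4115 and 4093 RPM, the highest AGe levels of the 4 groups. Their ratio to the host was 537 per mapped read, a log2 change of 9.06 ± 0.48 (edgeR adjusted p = 3.77e-21), and 177 per read aligned once. AGp reads numbered 422, 226 and 193, or 44.0, 16.6 and 15.8 RPM. They lay above the host libraries and below the ARE//AGe libraries without overlap. Replicate 1 was the highest, at 2.79 times the lowest, and without it the group mean of AGp was 16.2 RPM in place of 25.5.

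Over AGp the rise with Ctr//AGe was 6.75-fold per mapped read, a log2 change of 2.75 ± 0.42 (edgeR adjusted p = 8.00e-08, fitted ratio 6.70). Without replicate 1 the fitted ratio was 4.28. The means in RPMo were 99.3 ± 65.9 with the cassette and 43.7 ± 2.96 in the host, a ratio of 2.27 and a log2 change of 1.18 ± 0.41 (edgeR adjusted p = 0.00960). The Ctr//AGe libraries held 175, 63.1 and 59.3 RPMo and the highest host library 47.0 RPMo. Without replicate 1 the log2 change per read aligned once was 0.49 and did not pass the test (edgeR adjusted p = 0.248), and with the 2 groups alone in the fit its adjusted p was 0.0542 by edgeR. The comparisons of the 3 cassette groups with the host share the same 3 host libraries.

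**Figure D2:**
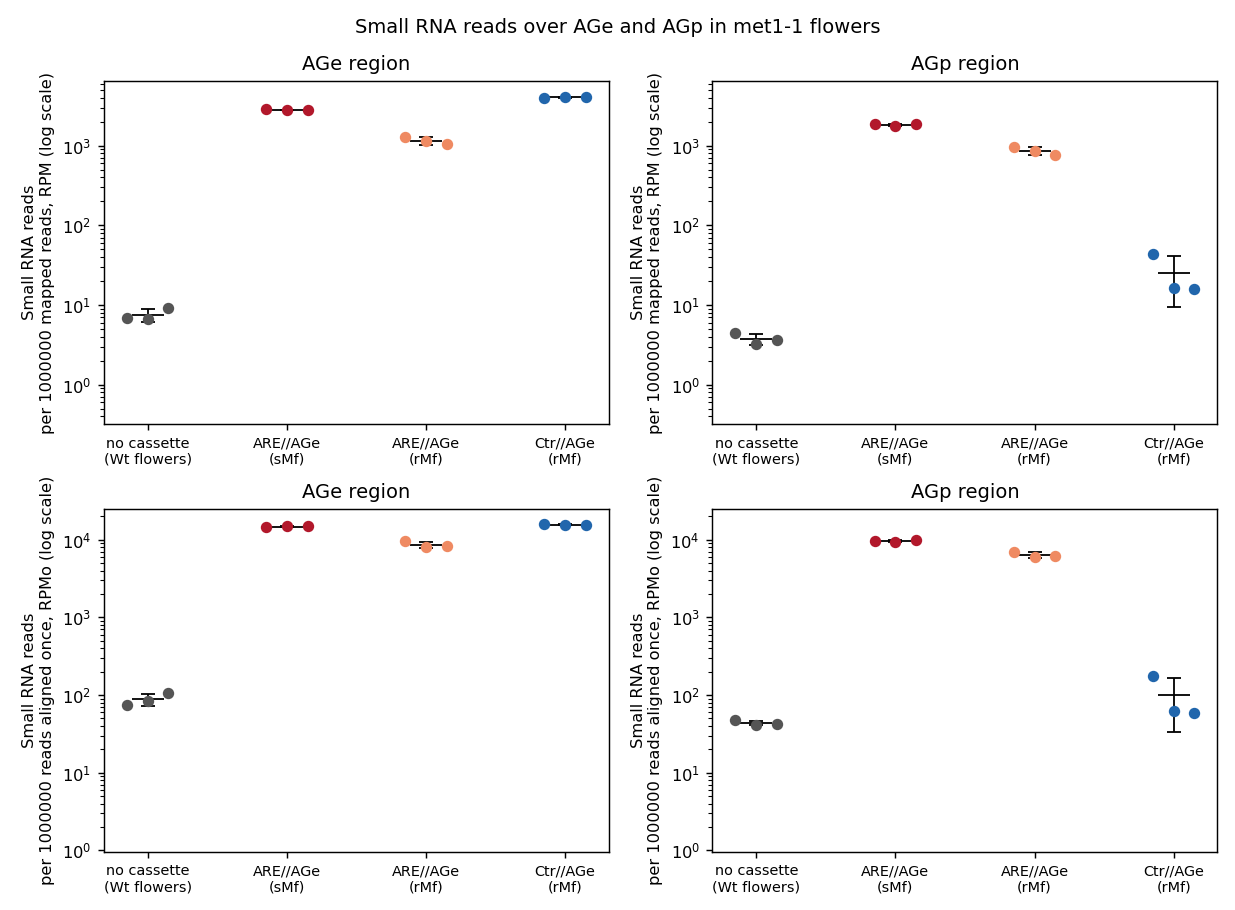
Small RNA reads over AGe (left) and AGp (right) in RPM (top) and RPMo (bottom), on log y axes, in the 4 met1-1 groups (x axis). Points are libraries, horizontal lines means and bars 1 SD (n = 3); with Ctr//AGe the AGe points are the highest of the 4 groups, while the AGp points, at 15.8 to 44.0 RPM, lie between the host and the ARE//AGe libraries.

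ARE//AGe and Ctr//AGe were next set against each other, within rMf flowers first, where the flower class is the same. AGp reads were higher with ARE//AGe and AGe reads were lower. Mean AGp was 859.9 ± 93.6 RPM with ARE//AGe and 25.5 ± 16.1 RPM with Ctr//AGe, a ratio of 33.8 and a log2 difference of 5.08 ± 0.45 (edgeR adjusted p = 3.37e-14). Without replicate 1 of Ctr//AGe the fitted ratio was 53.1, against 33.9 with it. The ratio of means in RPMo was 64.2 (log2 6.01 ± 0.48, edgeR adjusted p = 1.48e-15), and without that replicate the fitted ratio was 104.

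Mean AGe in rMf flowers was 1162 ± 131 RPM with ARE//AGe and 4056 ± 85.1 RPM with Ctr//AGe, a ratio of 0.287 and a log2 difference of -1.80 ± 0.35 (edgeR adjusted p = 6.79e-06). The ARE//AGe libraries held 9503, 8046 and 8293 RPMo of AGe and the Ctr//AGe libraries 15773, 15625 and 15409 RPMo. The groups did not overlap in either unit. The ratio in RPMo was 0.552, with a 95% interval of 0.334 to 0.913 (edgeR adjusted p = 0.0289). It no longer passed when replicate 2 or 3 of ARE//AGe or replicate 2 of Ctr//AGe was left out (edgeR adjusted p = 0.0808, 0.0738 and 0.0512). The share of mapped reads aligned once in the ARE//AGe libraries was 0.519 times that of Ctr//AGe, and the ratio of 0.287 per mapped read is about the product of this factor and 0.552.

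Between ARE//AGe in sMf flowers and Ctr//AGe in rMf flowers, the promoter differed by more and the enhancer by less. AGp stood at 1834 ± 65.3 against 25.5 ± 16.1 RPM, a ratio of 72.0 and a log2 difference of 6.17 ± 0.47 (edgeR adjusted p = 3.40e-16), and without replicate 1 of Ctr//AGe the fitted ratio was 113 in place of 72.2. In RPMo the ratio was 96.4, and the fitted ratio without that replicate 156. AGe stood at 2831 ± 22.9 against 4056 ± 85.1 RPM, a ratio of 0.698 with a 95% interval of 0.436 to 1.12 (log2 -0.52 ± 0.34, edgeR adjusted p = 0.1297). The libraries did not overlap, at 2811 to 2856 and 3958 to 4115 RPM, and the call depended on which libraries entered the edgeR fit: the adjusted p was 0.0234 without the 2 kan1-11 libraries of set B, 0.00230 with the 12 met1-1 libraries alone and 6.27e-06 with the 2 groups alone.

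Set against reads aligned once, AGe in ARE//AGe sMf flowers stood near the Ctr//AGe level. The sMf libraries held 14539, 14819 and 14974 RPMo and the Ctr//AGe libraries 15409 to 15773 RPMo. The ratio was 0.947, with a 95% interval of 0.575 to 1.56 (edgeR adjusted p = 0.827), an interval that leaves room for differences of either sign. With the 2 groups alone in the fit the same ratio had an edgeR adjusted p of 0.00696, and the 6 libraries did not overlap.

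Over both flower classes together, 6 ARE//AGe libraries were compared with the 3 Ctr//AGe libraries by an exact two-sided permutation test of mean log2 levels. AGp was higher by 5.79 per mapped read and by 6.49 per read aligned once, on the log2 scale. Without replicate 1 of Ctr//AGe it was higher by 6.27 and 6.99 (exact permutation p = 0.0714 for each, 6 against 2 libraries). The differences for AGe on all libraries were -1.16 and -0.47. Each of these 4 exact tests on all libraries gave p = 0.0238, the smallest possible, as did the same 4 on a linear scale and the 8 against the host. All 6 ARE//AGe libraries lay on the same side of all 3 Ctr//AGe libraries in each region and unit.

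Within the ARE//AGe cassette, sMf flowers held more small RNA over both regions than rMf flowers. The AGe ratio was 2.44 per mapped read, a log2 difference of 1.28 ± 0.34 (edgeR adjusted p = 0.000593), and the AGp ratio 2.13, a log2 difference of 1.09 ± 0.38 (edgeR adjusted p = 0.00659). In RPMo, AGe averaged 14777 ± 221 and 8614 ± 780, a ratio of 1.72 (95% interval 1.04 to 2.83, edgeR adjusted p = 0.0429), and this call was lost when any 1 of the 6 libraries was left out (edgeR adjusted p from 0.0575 to 0.106). AGp averaged 9572 ± 316 and 6375 ± 545, a ratio of 1.502 that did not pass the test (95% interval 0.875 to 2.58, edgeR adjusted p = 0.148). With the 2 groups alone in the fit it passed (edgeR adjusted p = 9.43e-05). The 3 sMf and 3 rMf libraries did not overlap in either region or unit.

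The spread within a class was itself unequal. AGe in the sMf libraries varied with a coefficient of variation of 0.809% over mapped totals from 5848557 to 14553139 reads, against 11.2% in rMf flowers. AGp varied by 3.56% and 10.9%. In RPMo the rMf values were 9.05% for AGe and 8.55% for AGp. AGp reads per AGe read varied in the other order, by 3.27% in sMf and 0.508% in rMf flowers. These are spreads over 3 libraries each, and their differences were not tested.

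**Figure D3:**
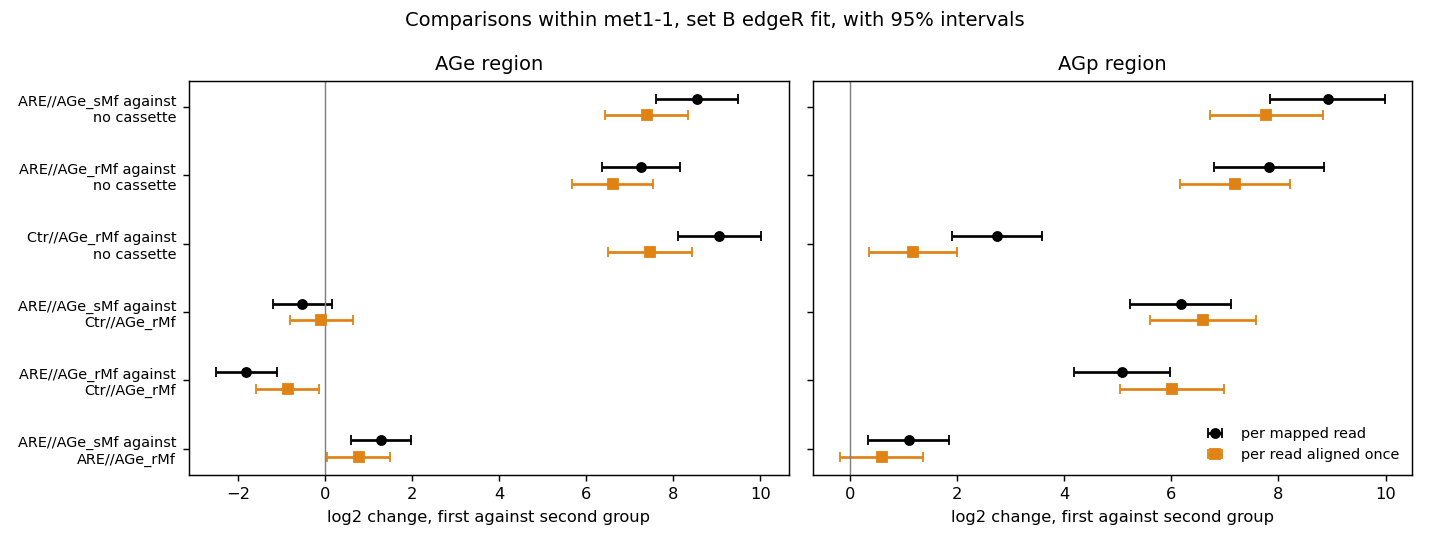
Log2 changes (x axis) for the 6 comparisons among the met1-1 groups (y axis), for AGe (left) and AGp (right), with 95% intervals from the edgeR fit of set B; circles are per mapped read and squares per read aligned once. Per mapped read the interval includes 0 for AGe in ARE//AGe sMf flowers against Ctr//AGe; per read aligned once it also does for AGp in sMf against rMf flowers.

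The balance of promoter to enhancer reads within a library does not depend on the total used. AGp reads per AGe read were 0.639, 0.489 and 0.401 in the host, 0.661, 0.623 and 0.659 in ARE//AGe sMf, 0.736, 0.744 and 0.741 in ARE//AGe rMf, and 0.0111, 0.00404 and 0.00385 in Ctr//AGe. The Ctr//AGe libraries stood far below all others, and the rMf libraries of ARE//AGe above all others with hardly any spread. An exact permutation test of the F ratio of the log2 values over the 4 groups gave p = 0.00013. ARE//AGe of both classes was higher than Ctr//AGe by 6.96 on the log2 scale (exact permutation p = 0.0238, 6 against 3 libraries) and higher than the host by 0.47 (exact permutation p = 0.0476). Taken apart, sMf was higher than the host by 0.37 (exact permutation p = 0.2) and rMf by 0.56 (exact permutation p = 0.1). The host ratios rest on 46 to 69 AGp and 94 to 157 AGe reads a library. Ctr//AGe differed from the host by -6.49 without overlap (exact permutation p = 0.1, the smallest possible for 3 against 3). With replicate 1 of Ctr//AGe left out, ARE//AGe was higher than Ctr//AGe by 7.46 (exact permutation p = 0.0714). The difference of Ctr//AGe from the host was then -6.99 (exact permutation p = 0.2). Host and ARE//AGe sMf libraries overlapped, and the difference of sMf from rMf was -0.19 without overlap (exact permutation p = 0.1, the smallest possible).

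Taken per length, the 2 regions were nearly even with ARE//AGe. In RPM per kb of region, AGe and AGp stood at 943.9 ± 7.64 and 873.2 ± 31.1 in sMf flowers, and 387.5 ± 43.6 and 409.5 ± 44.6 in rMf flowers. With Ctr//AGe these levels were 1352 ± 28.4 and 12.1 ± 7.65, and in the host 2.52 ± 0.458 and 1.80 ± 0.278. Taken within each library and then averaged, the density over AGp was 1.06 times that over AGe in ARE//AGe rMf, 0.925 times in ARE//AGe sMf, 0.728 times in the host and 0.00905 times in Ctr//AGe. Without replicate 1 of Ctr//AGe its AGp level was 7.71 RPM per kb, and the density over AGp 0.00563 times that over AGe.

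**Figure D4:**
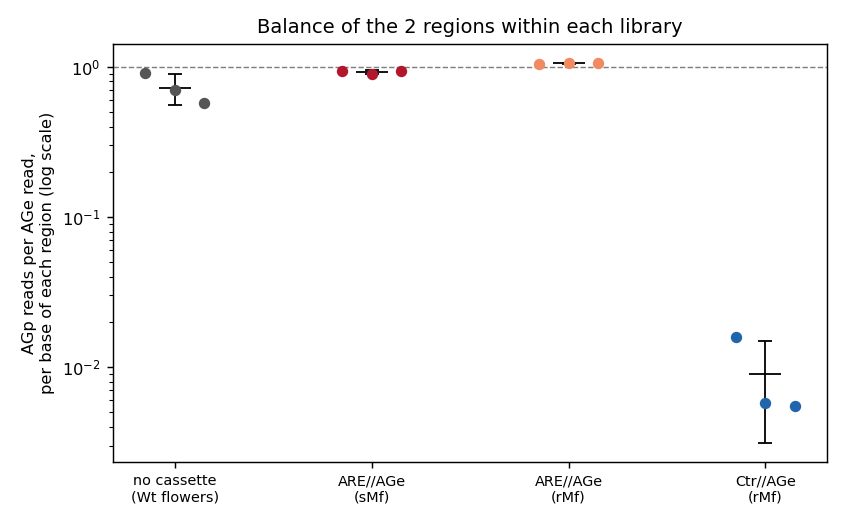
AGp reads per AGe read, each per base of its region, on a log y axis, in the 3 libraries of each met1-1 group (x axis), with the mean and 1 SD; the dashed line marks equal density. The ARE//AGe libraries lie at 0.890 to 1.06, and the Ctr//AGe libraries at 0.00550 to 0.0159.

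The same cassettes and flower classes were sequenced in set B in ddm1-1, a mutant of a chromatin remodeller needed for DNA methylation, and the changes in the 2 hosts were compared directly. Per mapped read, 4 of 6 differences between hosts (66.7%) passed the test (edgeR, Benjamini-Hochberg over the 6). The rise of AGe with Ctr//AGe was 537-fold in met1-1 and 43.1-fold in ddm1-1, a difference of 3.60 ± 0.50 on the log2 scale (edgeR adjusted p = 5.25e-08). In RPMo the rise was 177-fold in met1-1 and 176-fold in ddm1-1, and the difference was -0.030 (edgeR adjusted p = 0.954, 95% interval of the ratio 0.475 to 2.02). AGp with Ctr//AGe stood at 6.75 times the host level in met1-1 and at 0.664 times it in ddm1-1 per mapped read, a log2 difference of 3.29 ± 0.59 (edgeR adjusted p = 2.93e-06). The ddm1-1 host libraries held 89, 24 and 61 AGp reads over 17841865, 2498525 and 3768257 mapped reads, and those with Ctr//AGe 70, 68 and 49. The 95% interval of the fitted ddm1-1 ratio per mapped read, 0.379 to 1.23, included 1. In RPMo the AGp ratios were 2.27 in met1-1 and 2.72 in ddm1-1, and the difference was -0.31 (edgeR adjusted p = 0.954), or -1.01 with replicate 1 of met1-1_Ctr//AGe_rMf left out (edgeR adjusted p = 0.355). The ddm1-1 interval in RPMo was 1.52 to 5.13. The shares of mapped reads aligned more than once stood in another order in ddm1-1, at 73.9% in its host, 74.8% in ARE//AGe sMf, 86.7% in ARE//AGe rMf and 93.6% in Ctr//AGe.

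AGe in rMf flowers with ARE//AGe stood at 0.287 of the Ctr//AGe level in met1-1 and at 2.00 times it in ddm1-1, a log2 difference between hosts of -2.81 ± 0.48 per mapped read (edgeR adjusted p = 2.20e-06). The same 2 ratios in RPMo were 0.552 and 0.964, and the difference was -0.80 (95% interval of its ratio 0.282 to 1.16, edgeR adjusted p = 0.713). The promoter separated the cassettes in both hosts. AGp ratios of ARE//AGe to Ctr//AGe in rMf flowers were 33.8 in met1-1 and 153 in ddm1-1 per mapped read, a log2 difference of -2.19 (edgeR adjusted p = 0.000390). In RPMo they were 64.2 and 74.0, a difference of -0.21 (edgeR adjusted p = 0.954). Without replicate 1 of met1-1_Ctr//AGe_rMf the latter difference was 0.48, of the opposite sign (edgeR adjusted p = 0.735). The sMf to rMf ratio of AGe was 1.72 in met1-1 and 1.77 in ddm1-1 per read aligned once. Its difference between hosts passed the test in neither unit, at -0.48 per mapped read (edgeR adjusted p = 0.321) and -0.048 per read aligned once (edgeR adjusted p = 0.954). The sMf to rMf ratio of AGp was 2.13 in met1-1 and 3.50 in ddm1-1 per mapped read, a log2 difference of -0.71 (edgeR adjusted p = 0.221). In RPMo it was 1.502 and 1.83, a difference of -0.29 (edgeR adjusted p = 0.954). In RPMo 0 of the 6 differences (0%) passed, and 0 of 6 had an unadjusted p under 0.05 in that edgeR fit. DESeq2, fitted per mapped read, passed 4 of 6.

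**Figure D5:**
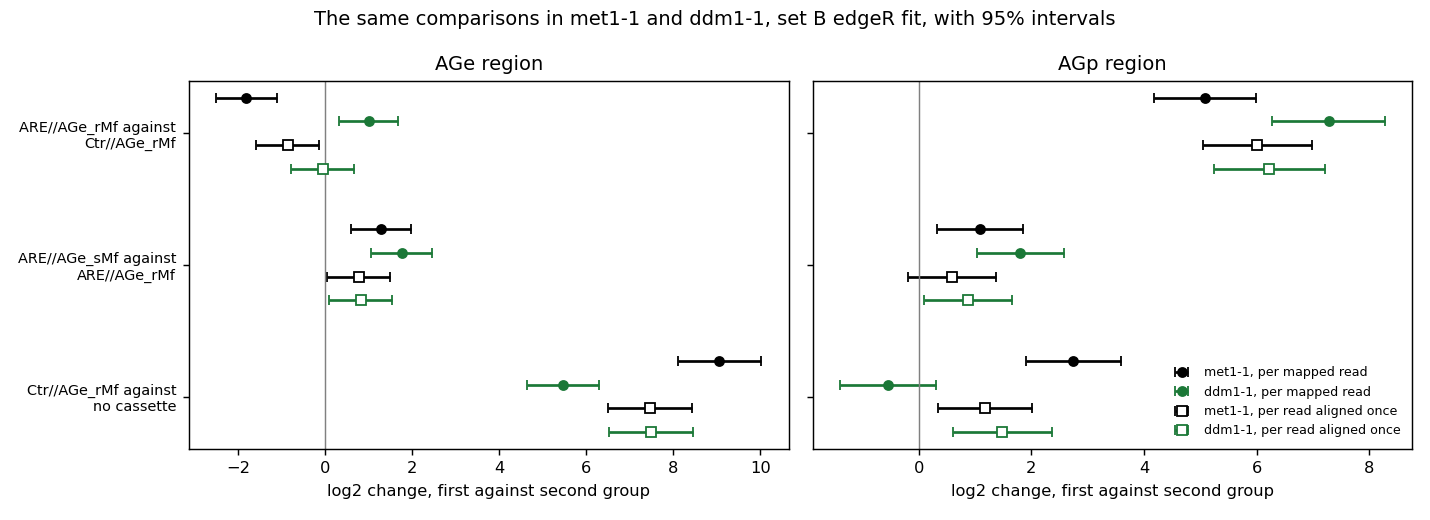
Log2 changes (x axis) of 3 comparisons (y axis) in met1-1 (black) and ddm1-1 (green), for AGe (left) and AGp (right), with 95% intervals from the edgeR fit of set B; filled circles are per mapped read, open squares per read aligned once. For Ctr//AGe against the host over AGe the circles lie at 9.06 and 5.47 and the squares at 7.47 and 7.50.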

How the data were processed

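Small RNA from young flowers was sequenced; per the labels' protocols, set B used an Illumina TruSeq kit for small RNA. Reads were aligned to TAIR10 with Bowtie and counted with HTSeq 0.13.5, per the submitters' processing notes; how multiply aligned reads were counted is not given in the sources used here. The authors deposited, per library, counts of total reads, reads aligned once and more than once, mapped reads and reads per region, the percent of reads mapped, and mapped-read-normalized reads (RPM) in each region, per the file headers. Mapped reads equalled the 2 alignment classes in 12 of 12 libraries, and the deposited RPM equalled the recomputed values within 1e-06. The deposited percent lay 0.569 to 0.726 points above mapped over total reads and was not used. No 2 replicates were alike: chi-square over alignment classes was at least 228.

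Counts were tested with edgeR 4.0.16 (R 4.3.3), a quasi-likelihood F test with 1 dispersion common to both regions and 1 mean per group over all 32 libraries of set B in 11 groups, with mapped reads as library size. The 2 kan1-11 libraries, titled A and B and not stated to be replicates, entered as 1 group. P-values were adjusted by Benjamini-Hochberg over the 12 met1-1 tests and, separately, over 6 differences between hosts, at 0.05. A standard error is the log2 change over the square root of F. Ratios are of group means unless called fitted. Shares and region ratios were tested by exact permutation. Both regions are named in every comparison. Alternatives were reads aligned once and total reads as library size, DESeq2 1.42.0, limma 3.58.1 on log2(RPM + 1) and log2(RPM + 0.1), fewer libraries, and each library left out. Exact Poisson intervals and floors (3 reads) cover counting error only; intervals of ratios come from the edgeR fit, whose dispersion includes the spread between libraries. The genome used for sequence was RefSeq TAIR10.1, and its nuclear coordinates were taken to be those of TAIR10. At the coordinates of the files, AGe lay within AG there and AGp directly before it. The regions, groups and tests were chosen with earlier results of these data known. met1-1_Wt was not compared with Col here. Only the edgeR fit per mapped read of the met1-1 comparisons was run on simulated counts. These had the common dispersion of the fit and smaller changes than those of the cassettes against the host. The permutation tests, the differences between hosts and the fits per read aligned once were not simulated.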

Additional observations from a re-analysis of the deposited data

Results flagged for a closer look

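Of the 6 changes compared between the met1-1 and ddm1-1 hosts, 4 differed per mapped read by a test of the difference itself (edgeR, Benjamini-Hochberg over the 6). For ARE//AGe against Ctr//AGe in rMf flowers the met1-1 change was lower, with a log2 difference of -2.81 for AGe (edgeR adjusted p = 2.20e-06). Over AGp that difference was -2.19 (edgeR adjusted p = 0.000390). For Ctr//AGe against the host the met1-1 change was higher, by 3.60 over AGe (edgeR adjusted p = 5.25e-08) and 3.29 over AGp (edgeR adjusted p = 2.93e-06). Per read aligned once these 4 differences were -0.80, -0.21, -0.030 and -0.31, with edgeR adjusted p of 0.713, 0.954, 0.954 and 0.954. The alignment classes differed between the hosts in the same groups, with 91.4% and 73.9% of mapped reads aligned more than once in host flowers, and 74.0% and 93.6% with Ctr//AGe, in met1-1 and ddm1-1. Their part in the 4 differences was not tested beyond these values per read aligned once. Without replicate 1 of met1-1_Ctr//AGe_rMf the AGp differences per mapped read were -1.55 and 2.63, or 0.342 and 6.20 as ratios in place of 0.219 and 9.79.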

How the results depend on the processing

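Per mapped read, leaving out 1 library at a time kept the direction and call of all 12 met1-1 tests and of all 6 differences between hosts, in 72 refits each. The same refits per read aligned once, chosen after seeing the data, kept the direction of the 12 met1-1 tests and lost a call in 10 of 72. AGe in sMf against rMf lost it in all 6 (0.73 to 0.86), AGe in ARE//AGe rMf against Ctr//AGe in 3 of 6 (-0.93 to -0.81), and AGp with Ctr//AGe against the host without replicate 1 of Ctr//AGe (edgeR adjusted p = 0.248; 0.49 to 1.44 over 6). Of the host differences, none of which passed in that unit, 8 of 72 refits turned the sign: AGe in sMf against rMf ran from -0.12 to 0.087, AGe and AGp with Ctr//AGe against the host from -0.33 to 0.33 and from -1.01 to 0.11, and AGp with ARE//AGe against Ctr//AGe from -0.56 to 0.48. The other alternatives, apart from those chosen after seeing the data, kept 127 of 132 met1-1 calls. The exceptions were AGe in ARE//AGe sMf flowers against Ctr//AGe, at log2 -0.52 in each, which passed with DESeq2 (adjusted p = 0.0499), with the met1-1 libraries alone (edgeR adjusted p = 0.00230), with its own 2 groups (edgeR adjusted p = 6.27e-06) and without kan1-11 (edgeR adjusted p = 0.0234), and AGp in sMf against rMf flowers, at 0.59 per read aligned once (edgeR adjusted p = 0.148). With no single library left out, 10 to 12 of 12 tests passed.

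Other settings per read aligned once were also chosen after seeing the data. With the met1-1 libraries alone, AGp in sMf against rMf was 0.59 (edgeR adjusted p = 0.128). With only the 2 groups compared, AGe in sMf against Ctr//AGe was -0.078 (edgeR adjusted p = 0.00696) and AGp with Ctr//AGe against the host 1.18 (edgeR adjusted p = 0.0542). AGp in sMf against rMf passed with its own 2 groups (edgeR adjusted p = 9.43e-05) and, without kan1-11, was 0.59 (edgeR adjusted p = 0.1498). Over all alternatives, adjusted p (edgeR, DESeq2 or limma) ran from 6.27e-06 to 0.872 for AGe in sMf against Ctr//AGe, from 5.26e-06 to 0.256 for AGp in sMf against rMf and from 1.45e-12 to 0.248 for AGp with Ctr//AGe against the host.

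The differences between hosts per read aligned once were -0.80 and -0.21 for ARE//AGe against Ctr//AGe (AGe, AGp), and -0.030 and -0.31 for Ctr//AGe against the host, where the sign turned. Without kan1-11 they were -0.80, -0.22, -0.043 and -0.32 (edgeR adjusted p from 0.116 to 0.898). The share of reads aligned once entered by construction; no further cause was tested.

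The share aligned more than once, taken per total read, differed from the host by -12.5 points in ARE//AGe sMf, -5.80 in ARE//AGe rMf and -19.2 in Ctr//AGe, by 13.4 between ARE//AGe rMf and Ctr//AGe and by -6.66 between sMf and rMf.

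With the replicate number as a block (replicate block), 11 of 12 met1-1 tests and 4 of 6 host differences passed, as without it; AGp with Ctr//AGe against the host was 2.71 and AGe in sMf against rMf flowers 1.28. Same-numbered libraries of 2 groups correlated with r of -0.103 to 0.654, over 0.1 in 5 of 6 pairs of groups. The other pair, host and ARE//AGe rMf, was at -0.103, and the labels tie no number to a shared batch, so the block stayed an alternative. Each r was taken over 6 values, AGe and AGp of the same 3 replicates, which are not independent. Whether same-numbered libraries are paired was not tested. The low counts, 193 to 422 AGp reads with Ctr//AGe and 46 to 69 in the host, limit the precision of the AGp ratios between them.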
